A study of Mus musculus with 2 samples.

Results

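The clock genes Per1, Per2, Per3, Cry1, Cry2, Nr1d1, Nr1d2, Arntl, Dbp and Tef were followed through the Rac1 CUT&Tag profiles of mouse retina. These are 10 genes at the core of the circadian clock. All peaks that the authors assigned to one of them were taken, which gave 19 of the 4789 peaks of the series, 10 of 3078 in control retina and 9 of 1711 in retina with chronic ocular hypertension (COH). The genes were chosen from those that carry a peak in at least one of the lists, so the presence of a peak and its strength are a description and were not tested. CUT&Tag uses an antibody bound to chromatin to tether a transposase, which cuts and tags the DNA nearby. The antibody was directed against Rac1, a small GTPase best known for control of the actin cytoskeleton. One library came from the retina of untreated mice and 1 from the retina of mice with COH at 1 week, and both groups were wild-type C57BL/6 mice of 7 weeks. The labels do not say how the pressure was raised or whether retinas were pooled. The sample details used here also give no time of day of collection for either library. A difference in time of day therefore cannot be told apart from one in condition. With 1 library per group no difference between the conditions has a replicate check, and every difference below compares these libraries only.

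The clock is a feedback loop of transcription that runs in most cells, and the retina has one of its own that light resets. ARNTL (BMAL1) and CLOCK bind E-box sequences and switch on the Period and Cryptochrome genes, whose proteins return to the nucleus and block the same activators. A further loop runs through the nuclear receptors NR1D1 and NR1D2 (REV-ERB alpha and beta), which repress Arntl through a ROR response element (RORE). DBP and TEF, transcription factors of the PAR bZIP family, carry the rhythm to genes with a D-box.

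The letters of clock elements were looked for at the gene starts. RefSeq windows of GRCm38.p6, from 250 bases before to 50 after a start site, were at hand for 9 of the 10 genes, as 12 windows, and Per2 has none here. They were searched on both strands for the E-box CACGTG, its variant CACGTT, the D-box TTATGTAA or TTACGTAA, the RORE ANNTNGGTCA, the cAMP response element TGACGTCA and its core TGACG, which also counts inside the full element. The stretches below are those in which an element lies inside a peak by its distance from the start site. For Per3 and Tef the start is less sure. The E-box, E-box variant, D-box or RORE is in capitals. They run 5′ to 3′ on the gene's strand, and each is cut at the start site or kept to 30 bases so that no untranslated region is shown at length.

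Tef, inner start site, chr15:81811264-81811293, plus strand: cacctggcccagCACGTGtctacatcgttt
Per3, upstream, chr4:151044708-151044915, minus strand: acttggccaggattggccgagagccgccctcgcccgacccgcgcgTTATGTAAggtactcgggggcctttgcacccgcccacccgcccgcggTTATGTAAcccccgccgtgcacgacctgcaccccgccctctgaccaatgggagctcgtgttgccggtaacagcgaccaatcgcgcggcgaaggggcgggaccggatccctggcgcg
Cry1, upstream, chr10:85185055-85185304, minus strand: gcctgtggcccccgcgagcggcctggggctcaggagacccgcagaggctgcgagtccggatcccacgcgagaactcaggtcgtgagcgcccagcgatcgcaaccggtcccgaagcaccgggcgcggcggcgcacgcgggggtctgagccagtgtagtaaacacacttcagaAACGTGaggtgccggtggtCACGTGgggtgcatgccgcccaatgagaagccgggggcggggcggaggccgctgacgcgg
Cry2, upstream, chr2:92434218-92434247, minus strand: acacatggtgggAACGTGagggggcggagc
Arntl, just after its second start site, chr7:113207526-113207555, plus strand: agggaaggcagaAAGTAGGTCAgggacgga

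An E-box was found in 4 of the 12 windows (Cry1, 1 of the Per1 windows and both Tef windows), against 7.15% of all 32851 windows and 11.2% of the 2206 windows of genes with a peak within 1000 bp of their transcription start site (TSS). The D-box was found in the Per3 window alone, with 2 copies, against 1.06% of all windows and 0.816% of those of genes with a peak near the TSS. The RORE was found at Arntl, against 2.46% and 1.72%. The E-box variant was found at Cry1, Cry2 and Nr1d1, against 4.68% and 4.85%. The core of the cAMP response element was in 4 of the 12 windows, against 20.8% of all and 35.1% of those of genes with a peak near the TSS, so its share was near that of genes with such a peak. The full element was in 0 of the 12 windows, against 1.79% and 3.58%. These are matches of letters and not sites shown to be bound. Peaks outside the windows include those of Per1 and Nr1d1, the control Dbp peak and the Tef peaks near its first start. Elements under them, and at Per2, were not looked for. All 12 windows held more CpG dinucleotides than the median window (9 to 41 against 7), and so did the typical window of a gene with a peak near its TSS, with a median of 25.

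The strongest clock peak lay inside Tef and not at its first start. The list of each retina held 2 Tef peaks, both on chromosome 15 and both placed in 5′ UTRs. The outer pair began 147 bp (control) and 162 bp (COH) after the TSS. In the coordinates of the lists the inner peak lay at 81694928 to 81695895 in control and at 81695036 to 81695970 in COH. It spanned 8306 to 9273 bp after the TSS in control and 8414 to 9348 bp in COH. RefSeq has a second Tef start site 8741 bp after the first. The summits lay at 8769 bp in control and 8732 bp in COH. Both were close to that second start if the lists use the first RefSeq start. Gene length leaves this less sure, since Tef is 24443 bp long in the lists and 24191 bp in RefSeq. With the same start, the E-box shown above lies 8603 to 8608 bp after the TSS, inside both inner peaks. The E-box of the first start, at 127 bp before it, then lies in no peak.

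The pileup, the height of the stacked fragments at the summit in the authors' units, was 100 in control and 143 in COH at the inner Tef site. The fold enrichment over the caller's background was 10.46 in control and 14.27 in COH. The inner Tef peak thus stood above 95.8% of the control peaks and 97.4% of the COH peaks by fold. The COH pileup was 1.43 times the control pileup (1.10 to 1.87, an exact 95% interval that takes pileups as counts and covers counting error only). At the outer Tef site the pileup was 18 in control and 21 in COH, with folds of 4.12 and 4.88.

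That ratio was high for a strong site. Over all 1056 pairs of overlapping peaks outside the mitochondrial genome, the COH over control ratio of pileups had a median of 0.852, with quartiles of 0.718 and 1. A higher ratio than that of the inner Tef site was found in 24 of the 1056 pairs (2.27%). Among the 55 pairs with a control pileup of at least 100 it was found in 0, and the next ratio was 1.34. The same held for the 117 pairs with a control pileup of at least 50 and for the 47 pairs whose mean pileup was at least 100. This comparison was chosen after the Tef values had been seen, and with 1 library per group it shows how these lists differ, not an effect of COH.

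**Figure D1:**
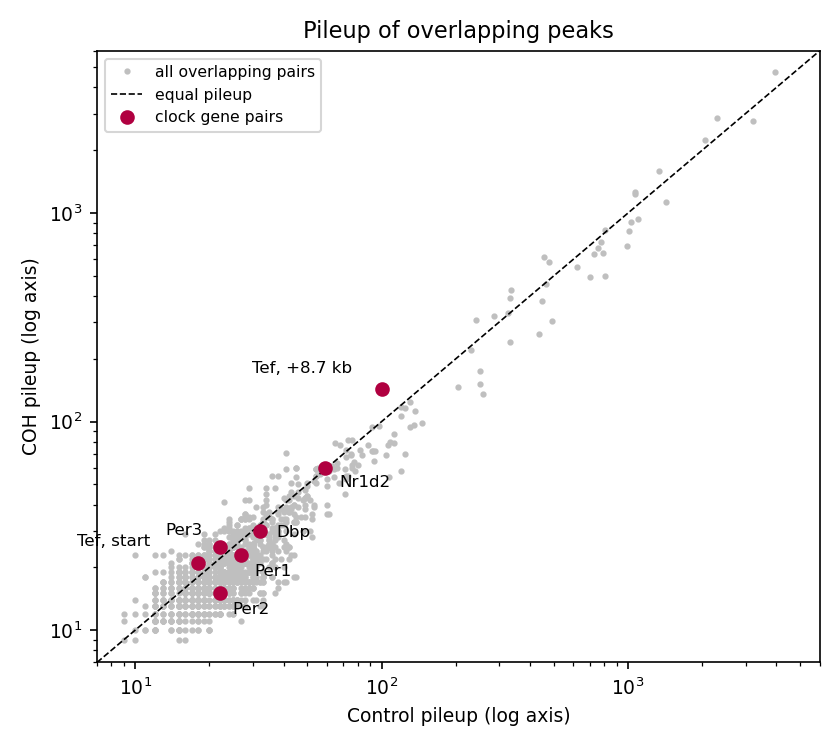
Pileup of overlapping peaks in control (horizontal, log axis) and COH (vertical, log axis), with all 1056 pairs outside the mitochondrial genome in grey, the 7 clock gene pairs in red and equal pileup as a dashed line. The inner Tef pair (100 and 143) lies above the line with the highest ratio of the pairs with a control pileup of at least 50 (1.43; next 1.34), Nr1d2 (59 and 60) lies on it, and Per2 (22 and 15) lies below.

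Nr1d2, which encodes the repressor REV-ERB beta, had the second strongest clock peak and nearly the same pileup in both retinas. Its control peak lay at 4230199 to 4231372 on chromosome 14 and overlapped the COH peak at 4230256 to 4231348. Both lay across the TSS, from 370 bp before to 803 bp after it in control and from 313 bp before to 779 bp after it in COH. Control had a pileup of 59 and COH one of 60, and their ratio was 1.02 (0.698 to 1.48). The file gave lengths of 1175 bp and 1094 bp, which rank 40 of 3078 and 27 of 1711. Within this broad peak the summits differed in place, 136 bp before the TSS in control and 394 bp after it in COH. The gap of 530 bp was the widest of the clock pairs and compares with a median of 71 bp over all pairs. Of the 1056 pairs, 28 (2.65%) had summits over 500 bp apart.

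The Period genes, whose proteins form the repressor complex with the Cryptochromes, had overlapping peaks at all 3 members. At Per3 (control peak at 151128885 to 151129563 on chromosome 4) the control pileup was 22 and the COH pileup 25, with folds of 5.27 and 6.83. Both Per3 summits lay at the same base, 269 bp before the TSS, and the 2 D-boxes shown above, at 205 and 158 bp before the RefSeq start, fall inside both peaks if the lists use that start. Gene length does not settle this, since Per3 is 41014 bp long in the lists and 47690 bp in RefSeq. At Per1 (68985640 to 68985975 on chromosome 11) the control pileup was 27 and the COH pileup 23, with folds of 5.54 and 5.11. Its summits lay 202 bp and 131 bp before the TSS used in the lists.

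That Per1 start is the outer one. The Per1 gene is 14744 bp long in the lists and 14858 bp in RefSeq, whose start sites with a window lie 3841 bp and 5044 bp further in. The E-box of the first of these windows lies 3675 bp after the outer start by this reckoning and in neither Per1 peak. No window reaches the outer start, so the sequence under the Per1 peaks was not searched. At Per2 (91386857 to 91387325 on chromosome 1) the pileup was 22 in control and 15 in COH. The folds were 3.74 and 3.75, among the lowest in either list, with 4.13% of control peaks and 3.97% of COH peaks below them. Per2 had the lowest ratio of the clock pairs, 0.682 (0.329 to 1.38), and its interval holds the median of all pairs. The summit lay 229 bp before the TSS in control and 77 bp before it in COH.

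Dbp, the D-box binding factor of the clock output, showed a high pileup on a high background. In control it had a peak at 45353575 to 45354252 on chromosome 7. Both Dbp peaks lay wholly before the TSS, from 937 to 260 bp before it in control and from 807 to 93 bp before it in COH. The pileup was 32 in control and 30 in COH, ranks 303 of 3078 and 238 of 1711. The folds were 3.06 and 3.75, ranks 3054 and 1642, so that 0.780% of control peaks and 4.03% of COH peaks had a lower fold. The background that the fold implies was 9.80 in control and 7.26 in COH, against list medians of 2.39 and 2.03. Fold and pileup therefore rank Dbp at opposite ends of the list.

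**Figure D2:**
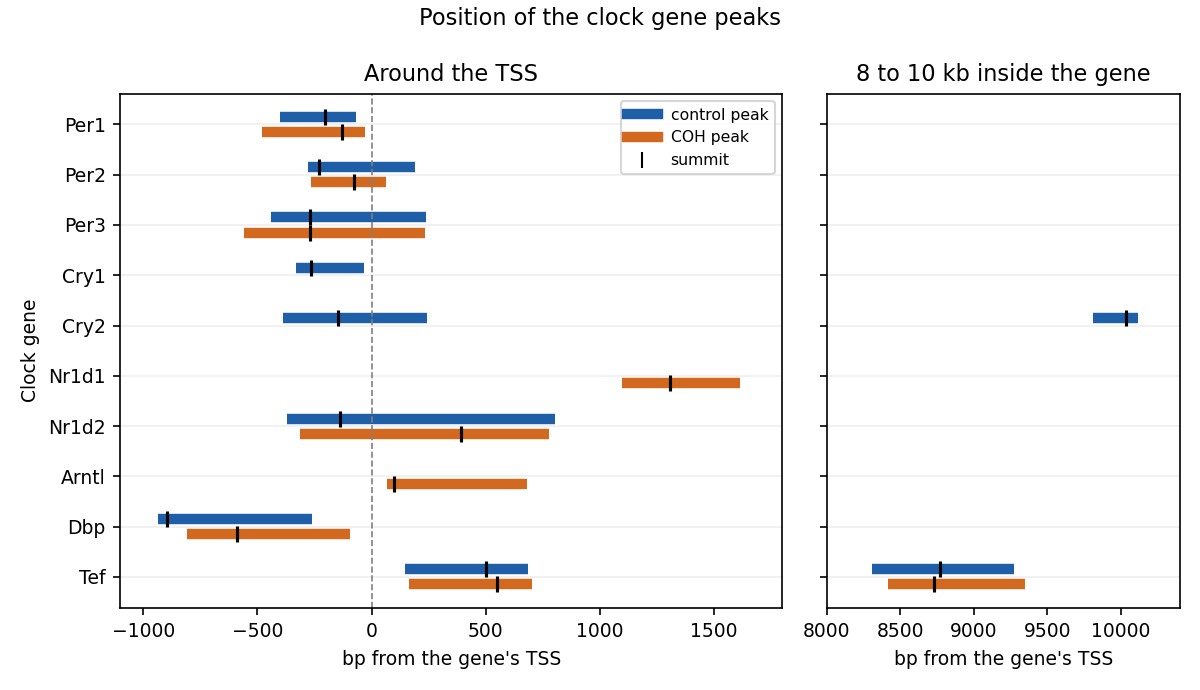
Extent of each clock gene peak in bp from the TSS of its gene (horizontal; negative values lie before the TSS), control in blue, COH in orange, with a tick at the summit. The Per, Cry1, outer Cry2 and Dbp summits lie before the TSS, those of Tef, Nr1d1 and Arntl after it, and that of Nr1d2 changes sides between the libraries.

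Both Cryptochromes, the partners of the Period proteins, had peaks in the control list and none in the COH list. At Cry1 the control peak (85020959 to 85021260 on chromosome 10) reached from 332 to 31 bp before the TSS and covered the E-box, 60 bp before the start, and its variant, 79 bp before. Its pileup was 21 and its fold 6.40, above 77.1% of the control peaks. At Cry2 a control peak (92264144 to 92264777 on chromosome 2) lay across the TSS. It reached a pileup of 23 at a fold of 5.40 and covered the E-box variant 166 bp before it. A second peak assigned to Cry2 (pileup 16, fold 4.14) lay 9809 bp after the TSS and is annotated to an intron of D930015M05Rik. The nearest COH peak was 82001 bp away from the Cry1 peak, at Tmem263, and 1196412 bp away from the Cry2 start peak, at Ddb2.

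Nr1d1 and Arntl, the repressor REV-ERB alpha and its target, had peaks in the COH list and none in control. The Nr1d1 peak (98664547 to 98665062 on chromosome 11) lay in intron 1 of its gene, 1097 to 1612 bp after the TSS (pileup 42, fold 6.41). It is the third strongest clock peak in COH by pileup, rank 139 of 1711. The Arntl peak (112806741 to 112807353 on chromosome 7) lay 69 to 681 bp after the TSS, in the 5′ UTR (pileup 16, fold 4.20), and held the RORE shown above at 73 to 82 bp. The nearest control peaks were 35487 bp away from the Nr1d1 peak, at Casc3, and 304958 bp away from the Arntl peak, at Far1.

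A missing peak means only that the signal did not pass the caller's threshold. The lowest −log10 p of the COH list would be reached, on the background of the control peak, by a pileup of 12 at Cry1 and of 14 at the Cry2 start, where control had 21 and 23. For the control list it would be reached by 19 at Nr1d1 and 13 at Arntl, where COH had 42 and 16. The local background of the other library is not known at these sites. Most COH peaks of the strength of Nr1d1 were shared. Of those in the same of 5 equal bins by fold, 74.9% (69.9 to 79.4, exact 95% interval) overlapped a control peak. For the bin of Arntl the share was 41.7%. Of the control peaks in the bin of Cry1, 35.9% overlapped a COH peak, and in the bin of the Cry2 start peak 26.8%. Most control peaks of that strength thus had no partner. Over all peaks the shares were 61.8% of 1711 in COH and 34.3% of 3078 in control. With lists of such unlike length, bin shares of COH peaks cannot be set against those of control peaks.

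**Figure D3:**
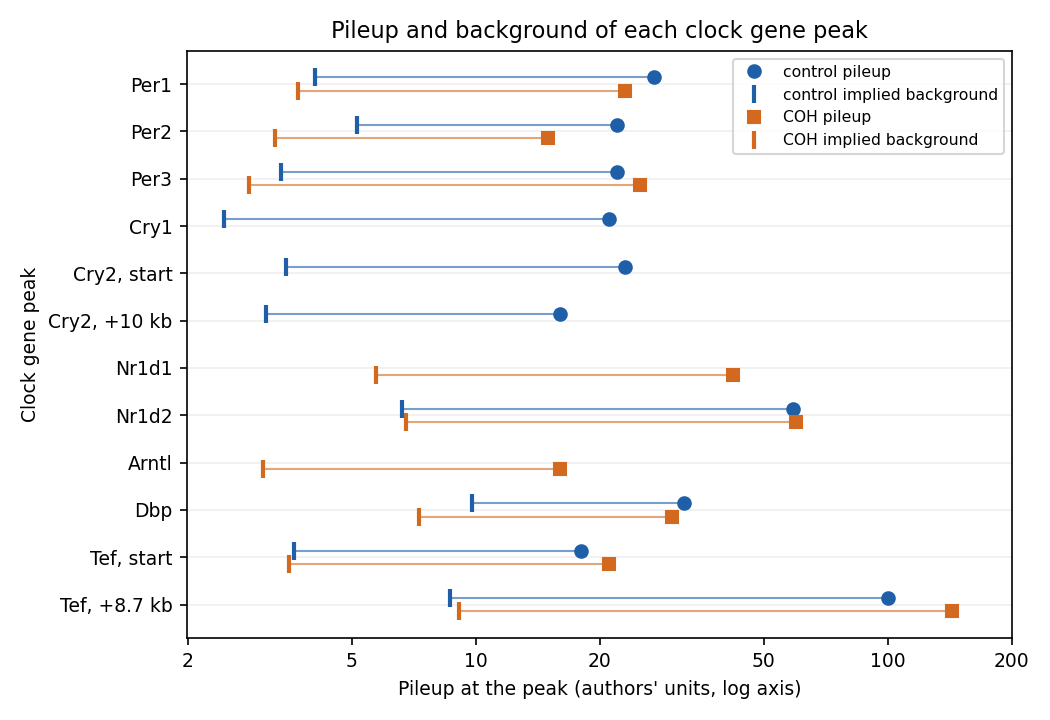
Pileup (circles, control; squares, COH) and the implied background (ticks) of each clock gene peak on a log axis in the authors' units, with lines joining the values of a peak. The inner Tef site and Nr1d2 have the highest pileups of the clock genes in both lists, and Dbp has the highest control background, 9.80.

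Peaks were listed for 8 of the 10 genes in control, for 8 in COH and for 6 in both, while 10.8%, 5.38% and 3.53% of protein-coding genes did. The counts of the clock genes were fixed by the choice of members and nothing is read from them. The 6 genes in both lists (Per1, Per2, Per3, Nr1d2, Dbp, Tef) are 6 of 8 in each list. Over all genes, 35.6% of those of the control list were also in the COH list, and 64.6% of those of the COH list were also in control. In all 6 the peaks overlapped, as 7 pairs, so 7 of the 10 control peaks had a COH partner and 7 of the 9 COH peaks a control partner, against 34.3% and 61.8% over all peaks. The COH share of 7 of 9 is near its background. In 4 of the 7 pairs the COH pileup was the higher, against 259 (24.5%) of all 1056 pairs outside the mitochondrial genome. The pileups of the 7 clock pairs summed to 280 (control) and 317 (COH), which gave a ratio of 1.13 (0.961 to 1.33). Without the inner Tef pair the ratio was 0.967, and over all pairs the summed ratio was 0.957.

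The clock peaks were mostly at gene starts. In control 8 of 10 and in COH 7 of 9 lay within 1000 bp of the TSS, where 61.6% and 51.1% of all peaks lay. By the authors' annotation 7 control and 5 COH peaks were in promoters, 2 and 3 in 5′ UTRs and 1 and 1 in introns. They were broader than most, with a median length of 587 bp (control) and 614 bp (COH), where the whole lists had 426 bp and 401 bp. By fold they were ordinary, with medians of 5.34 and 5.11 against 5.24 and 5.45. The pileup of 9 of the 10 control and 7 of the 9 COH clock peaks was above the list median of 17 and 16.

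All 19 clock peaks had an implied background above the median of their list. It ranged from 2.44 (Cry1) to 9.80 (Dbp) in control and from 2.81 (Per3) to 9.09 (inner Tef site) in COH. Of all peaks within 1000 bp of a TSS, 57.7% in control and 57.6% in COH lay above that median. No peak of the 19 was in a cluster of at least 5 peaks within 100 kb, and no peak of another gene lay within 10 kb of the TSS of a clock gene. The implied background is calculated from pileup and fold. At a given pileup, a low fold such as that of Dbp or Per2 is thus the same fact as a high background. Why the background was high there was not tested.

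Beyond these genes, 71 others of the clock pathway were looked up in 6 lists, written with earlier results of these data known. The control list held 24 (33.8%), the COH list 18 (25.4%) and both lists 15, beside 10.8%, 5.38% and 3.53% of protein-coding genes. The activators and their partners (Clock, Npas2, Arntl2, Rora and Rorb) had 0 of 5 in each list. A list of 5 genes is too short to set apart from the background.

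Other repressors and modulators had 4 of 9 in each list. Bhlhe40, which encodes DEC1, a repressor at E-boxes, had overlapping promoter peaks (control pileup 34, COH pileup 48, folds 5.22 and 6.96). Ciart, a repressor of CLOCK and BMAL1, had overlapping promoter peaks with pileups of 19 and 16. The peaks of Bhlhe41 (DEC2), each with a pileup of 23, did not overlap: the control peak lay 9331 bp after the TSS and the COH peak 99 bp before it. Cipc had a peak in control, with a pileup of 21, and Hlf, a relative of Tef and Dbp, had a distal peak in COH, 27007 bp before its TSS.

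Regulators of clock protein stability had 4 of 16 in each list. The kinase gene Gsk3b had promoter pileups of 24 in control and 16 in COH, and the phosphatase gene Ppp1ca of 24 and 14. The ubiquitin ligase genes Btrc, with 17 and 16, and Fbxw7, with 18 and 22, also had overlapping promoter peaks. Chromatin cofactors had 6 of 11 and 4 of 11: the acetyltransferase genes Ep300 (31 and 23) and Crebbp (20 and 20) and Cbx3 (25 and 16) had overlapping promoter peaks by pileup in control and COH. Ezh2 was in both lists, in COH only through clustered distal peaks and in control through such peaks and a 5′ UTR peak. Kmt2a (26) and Sin3a (24) were in control alone.

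Genes of light input had 4 of 16 in control and 1 of 16 in COH. Creb1, the factor through which light induces Per genes, had overlapping promoter peaks with pileups of 19 and 14. Rps6ka5 (pileup 29), Crtc2 (15) and Plcb4 (13) had peaks in control alone. The melanopsin gene Opn4 and the gene of the neuropeptide PACAP, Adcyap1, had none. Rhythmic outputs had 6 of 14 and 5 of 14. Nampt, the rate-limiting enzyme of the NAD salvage pathway, had overlapping 5′ UTR peaks with pileups of 32 and 27 and folds of 8.07 and 7.41. Drd2 had overlapping distal peaks with pileups of 13 and 13. Asmt was in both lists only through distal peaks on chromosome X, many of them clustered as at Ezh2. Their folds ran from 2.79 to 9.13 in control and from 3.26 to 7.82 in COH. Noct, Ppara and Pparg had peaks in control alone, and Wee1 and Gclm in COH alone, with pileups of 13 to 17. The Noct peak lay 52644 bp after its TSS, and a second Ppara peak 63955 bp before its TSS.

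**Figure D4:**
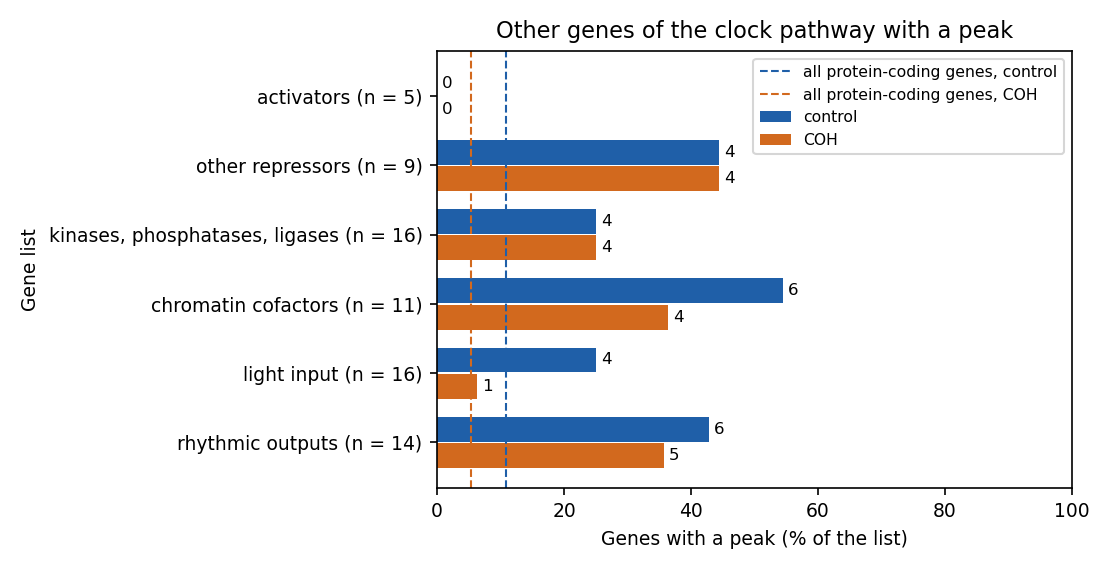
Share of each list of other clock pathway genes with a peak (horizontal, % of the list), control in blue and COH in orange, with the number of genes at each bar; dashed lines give the share of all protein-coding genes, 10.8% and 5.38%. The listed activators, which leave out Arntl, have no peak. The widest gaps between control and COH are in light input (4 of 16 and 1 of 16) and chromatin cofactors (6 of 11 and 4 of 11). They were not tested, and the COH share for light input (6.25%) is near the share of all protein-coding genes.

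The labelled tissue cannot be judged by marker expression from these lists. Of 48 markers of retinal cell types, 6 were in the control list and 2 in the COH list. The shares over all protein-coding genes were 10.8% and 5.38%. None of the 10 rod markers was in either list, and 10 genes are too few to set apart from that background. Rac1 itself had 0 peaks. Positions are those of the lists, and their build could not be settled. The build mm9 stands in the submitters' processing notes, 0 of the 10 clock genes have the coordinates of GRCm38.p6, and Nr1d2 is on the plus strand in the lists and on the minus strand in GRCm38.p6. Sequences were therefore set against peaks by the distance from the start site alone, which assumes that lists and RefSeq use the same start. The start was taken as the RefSeq one whose gene length was nearest to that of the lists. For Per3 no RefSeq start gave a close length, and for Tef the list length was greater than the RefSeq one. It was greater by less for Cry1 (53365 and 53355 bp), Nr1d2 (35074 and 35051 bp) and Dbp (5116 and 5104 bp).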

How the data were processed

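Libraries were made from retinal nuclei with an antibody against Rac1 and 15 cycles of PCR, per the labels. The submitters' processing notes name cutadapt 1.9.1, Bowtie2 and mm9; the peak caller is not given in the sources used here. The pileup (signal), fold enrichment (ratio), −log10 p and −log10 q of each peak are as deposited by the authors, whose headings for the last pair hold a spreadsheet error. Positions, lengths and distances (other values) are the authors', per the file headers; every deposited length was 2 bp more than end minus start.

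The implied background is (pileup + 1) / fold − 1. With it as the mean, the Poisson upper tail matched the deposited −log10 p within 0.01 for all 3057 control and 1689 COH peaks with a value under 300. Its lowest value was 1.18 in control and 1.14 in COH; the number of reads is unknown.

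Peaks overlapped by at least 1 bp. Intervals are exact Clopper-Pearson, 95%, and cover counting error only, because amplified reads that carry no molecular identifier can be copies. No test was made between conditions, with 1 library each. Clock genes, lists and alternatives were chosen with earlier results of these data known. All peaks of the 10 genes are named, as is each gene of the other lists with a peak; 1 gene of each of 2 lists is not reported here. Gene symbols were matched to RefSeq GRCm38.p6 by name or unique synonym among 21896 protein-coding genes. The overlap step was tested on simulated data. Python 3.11.15, pandas 2.3.3 and scipy 1.17.1 were used.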

Additional observations from a re-analysis of the deposited data

How the results depend on the processing

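No paired analysis was possible because each group has 1 library. Of 46 alternatives, 37 left the result within 1.5 times its value (for the pileup ratio, within its interval) and 9 did not, all of them with fewer, stronger peaks. With peaks above the median fold, the genes with a COH peak fell from 8 to 4, those in both lists and those with overlapping peaks from 6 to 3 (Nr1d2, Per3, Tef), and the overlapping control peaks and COH peaks from 7 to 3 each. With a −log10 q of at least 5, and with equal numbers of the strongest peaks, the overlapping control peaks and COH peaks were 4 each. Control genes numbered 6 in each of these settings, without Per2 and Dbp. Reciprocal overlap of 50%, counting peaks within 1000 bp of each other as shared, and removal of clustered peaks changed no count. They had no room to do so. Each overlap covered at least 69.9% of either peak, and no clock peak was clustered. Clock peaks without a partner lay at least 35487 bp from the other list. These settings are among the 37 and are no check on the counts. With peaks within 1000 bp of the TSS alone, the genes with a COH peak went from 8 to 7 and the overlapping control and COH peaks from 7 to 6 each. The summed pileup ratio of 1.13 ranged from 0.967 to 1.26, with 0.967 for peaks within 1000 bp of the TSS and, added after the data had been seen, without the inner Tef pair.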
